A study of Mus musculus with 32 samples.

Results

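The sirtuins are the 7 genes *Sirt1* to *Sirt7*, taken by symbol from 55385 genes that were counted in each of 16 total RNA libraries of mouse embryos. The 16 libraries form 8 groups of 2. Zygotes, early 2-cell embryos and late 2-cell embryos were cultured with DMSO or with A-485 at 10 µM, which blocks the acetyltransferase activity of CBP/p300. The treatment ran between 4 and 20 hours post in vitro fertilization (hpi), from zygote to early 2-cell. The labels do not give the hour of sampling, so zygotes may have been exposed for less than this window. In a separate experiment, late 2-cell embryos had been cultured with 50 nM TSA (Trichostatin A), an inhibitor of zinc-dependent histone deacetylases, or with DMSO between 8 and 28 hpi. All embryos were wild-type B6D2F1/J × B6D2F1/J, from parents of 6 to 8 weeks, and were grown in KSOM medium. Since A-485 was washed out at 20 hpi, the late 2-cell embryos of that experiment were taken after the agent had been removed. Each library holds whole embryos, nothing states that the 2 libraries of a group came from separate cultures, and the p-values therefore measure only the spread between these libraries, which may be technical. In such bulk libraries fewer cells and less RNA per cell cannot be told apart.

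Sirtuins are enzymes that use NAD to remove acetyl and other acyl groups from lysine residues. They differ in this from the zinc-dependent HDACs, and TSA does not act on their catalytic site. *Sirt1*, *Sirt6* and *Sirt7* encode mainly nuclear enzymes, *Sirt2* a mainly cytosolic enzyme, and *Sirt3*, *Sirt4* and *Sirt5* mitochondrial enzymes. In the mouse embryo the oocyte supplies the first mRNAs, most of which are degraded by the 2-cell stage, while transcription of the embryonic genome starts weakly in zygotes (minor ZGA) and strongly in late 2-cell embryos (major ZGA).

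The libraries held between 13206163 and 32585987 expected counts, the fewest in late 2-cell A-485-treated embryos, and their mitochondrially encoded share lay between 0.795% and 5.43%. Oocyte and zygote markers (*Zp3*, *Gdf9* and 4 others) summed to between 532.1 and 2067 FPKM in every library. The 2-cell markers (*Zscan4d*, *Zfp352* and 4 others) summed to between 6.93 and 7.69 FPKM in DMSO-treated zygotes and between 395.9 and 455.6 FPKM in DMSO-treated early 2-cell embryos, but to between 6.89 and 7.99 FPKM in A-485-treated early 2-cell embryos, at the level of zygotes. The 9 cumulus cell markers summed to at most 6.64 FPKM. *Ptx3* was at 0 in 11 libraries, but *Cyp19a1* (0.41 to 5.91 FPKM) and *Has2* (0.05 to 1.13 FPKM) were detected in every library. In zygotes nearly all of the sum was *Cyp19a1*, with a mean of 4.79 FPKM under DMSO. Sperm and blood markers summed to at most 18.87 and 4.57 FPKM.

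*Sirt1*, a deacetylase of histones and of p53, FOXO factors and many other nuclear proteins, was the most abundant sirtuin mRNA per length in each of the 8 groups. Its level is given in FPKM, the fragments per kilobase of effective transcript length per library size. DMSO-treated zygotes held 28.20 and 26.76 FPKM, and DMSO-treated early 2-cell embryos 34.06 and 33.57 FPKM. In late 2-cell embryos, the DMSO controls of the A-485 experiment held 162.54 and 145.31 FPKM and those of the TSA experiment 149.66 and 168.21 FPKM. A-485-treated zygotes and early 2-cell embryos stayed near their controls, with 31.01 and 27.16 FPKM in the former and 26.53 and 30.31 FPKM in the latter. Late 2-cell embryos held 11.06 and 12.87 FPKM after A-485 treatment, and 27.83 and 28.88 FPKM after TSA treatment. All 4 late 2-cell control libraries were thus above every other library, and the 2 late 2-cell A-485 libraries were the lowest of the 16.

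**Figure D1:**
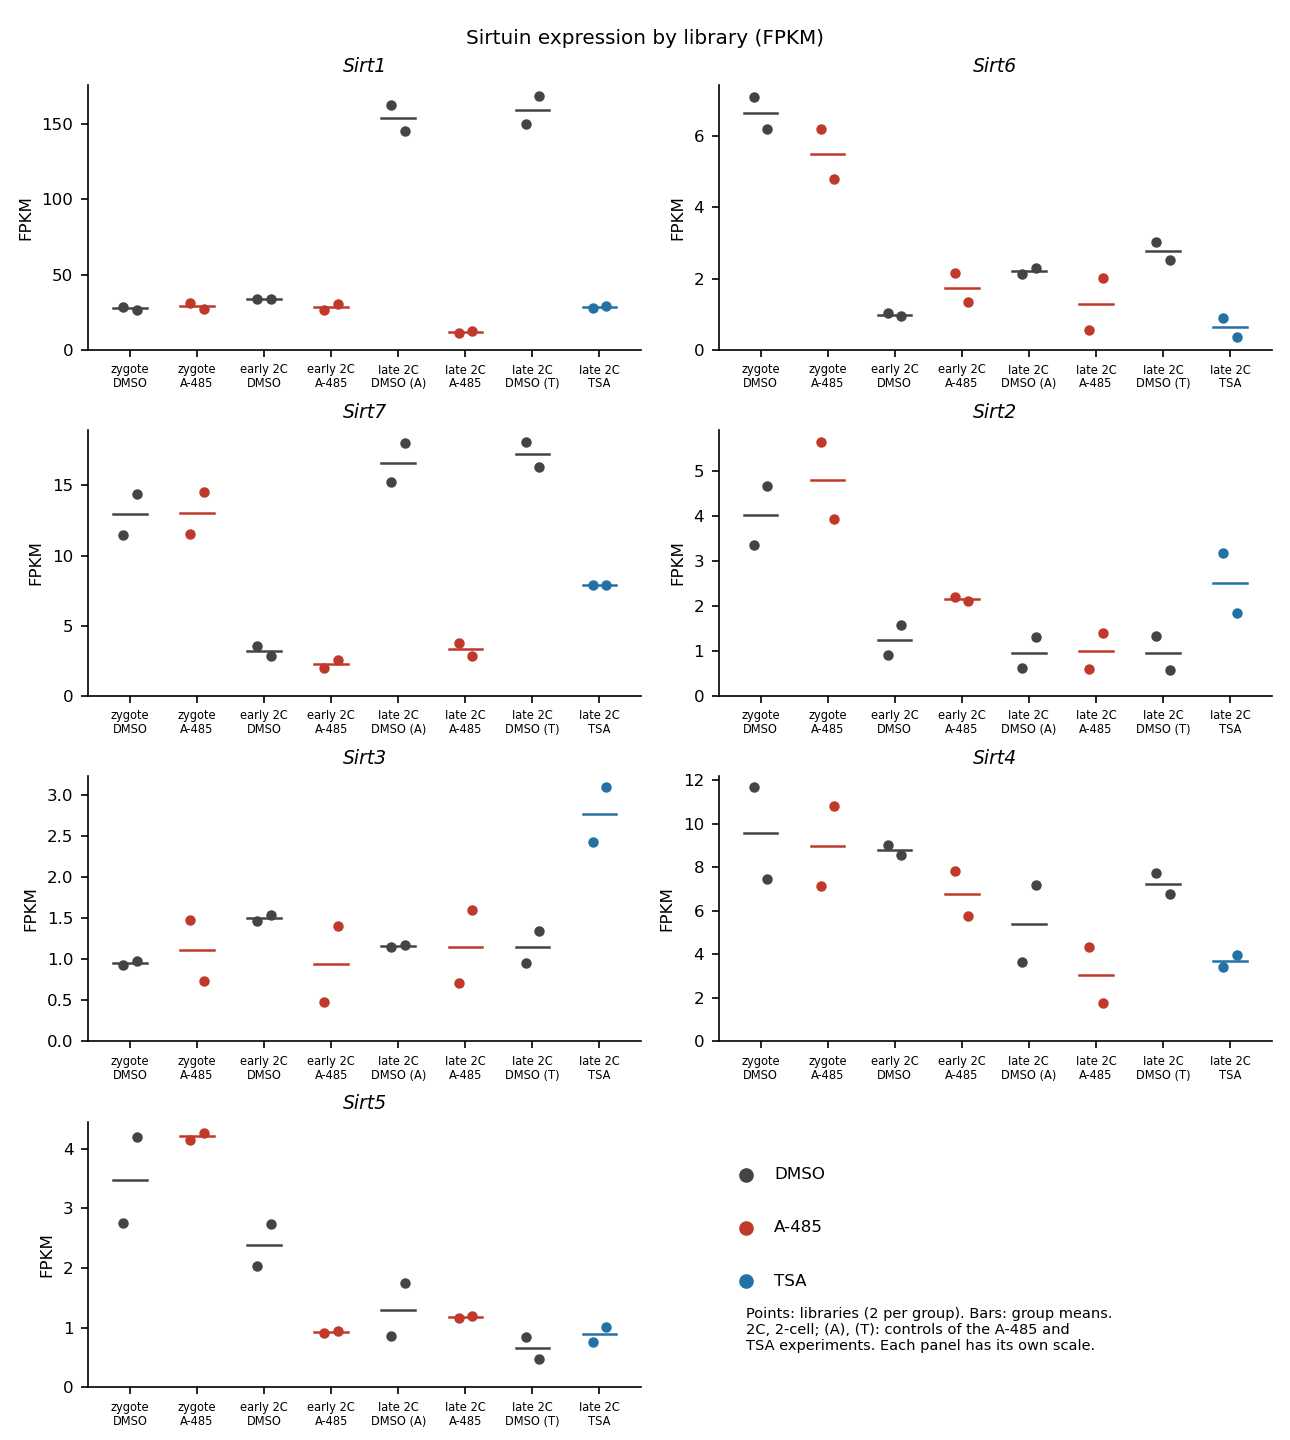
FPKM of each sirtuin (y axis, linear, from 0, own scale per gene) in the 8 stage and treatment groups (x axis), with each point a library and each line the mean of the 2 libraries of a group. *Sirt1* lies between 145.31 and 168.21 FPKM in the 4 late 2-cell DMSO libraries and at 34.06 FPKM or below in all others, and *Sirt7* is high in zygotes and again in late 2-cell DMSO libraries.

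*Sirt7*, a nucleolar enzyme linked to rDNA transcription, followed a different course, being high in zygotes and low in early 2-cell embryos. Its DMSO-treated libraries held 11.48 and 14.42 FPKM in zygotes, 3.54 and 2.82 FPKM in early 2-cell embryos and 15.24 and 18.02 FPKM in late 2-cell embryos, and the controls of the TSA experiment 18.13 and 16.30 FPKM. A-485-treated embryos held 11.55 and 14.51 FPKM in zygotes, 1.95 and 2.54 FPKM in early 2-cell embryos and 3.77 and 2.85 FPKM in late 2-cell embryos, and TSA-treated embryos 7.91 and 7.93 FPKM. *Sirt6*, a chromatin-bound deacetylase and mono-ADP-ribosyltransferase with a role in telomere maintenance and DNA repair, was highest in zygotes, with 7.10 and 6.20 FPKM under DMSO and 6.19 and 4.78 FPKM under A-485. All 12 libraries of 2-cell embryos were lower, between 0.36 FPKM in a TSA library and 3.03 FPKM in a DMSO library of that experiment.

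*Sirt2*, a tubulin and histone deacetylase, was likewise highest in zygotes, with 3.35 and 4.67 FPKM under DMSO and 5.65 and 3.93 FPKM under A-485. Its 2-cell libraries lay between 0.56 and 3.18 FPKM, the highest of them after TSA treatment. *Sirt3*, the main mitochondrial deacetylase, lay between 0.48 and 1.60 FPKM in 14 libraries and at 2.43 and 3.10 FPKM in the 2 TSA libraries. *Sirt4*, which has ADP-ribosyltransferase and lipoamidase activities, ranged from 5.74 to 11.70 FPKM in the 8 zygote and early 2-cell libraries and from 1.78 to 7.73 FPKM in the 8 late 2-cell libraries. *Sirt5*, which removes succinyl, malonyl and glutaryl groups, ranged from 2.75 to 4.26 FPKM in zygotes and from 0.47 to 2.73 FPKM in 2-cell embryos.

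The order of the 7 mRNAs changed with the stage below the first place. *Sirt1* was first in all 8 groups, and its lower library lay above the higher library of the next member each time. *Sirt7* came next in 6 groups, and *Sirt4* in both early 2-cell groups. The lower places were less distinct. In DMSO-treated early 2-cell embryos the libraries of *Sirt3*, *Sirt2* and *Sirt6* overlapped from neighbour to neighbour, as did those of *Sirt5*, *Sirt3* and *Sirt2* in the late 2-cell controls of the A-485 experiment. In late 2-cell A-485 embryos each neighbour from *Sirt7* down to *Sirt2* overlapped the next, so that only the place of *Sirt1* was distinct there. With TPM the order was the same in 7 groups, and *Sirt3* and *Sirt5* exchanged places in late 2-cell A-485 embryos.

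The share of *Sirt1* in the summed FPKM of the 7 genes rose from 42.2% ± 1.18 (SD, n = 2) in DMSO-treated zygotes to 65.1% ± 0.375 in early 2-cell and 84.7% ± 3.69 in late 2-cell embryos. It was 84.1% ± 2.38 in the controls of the TSA experiment. The summed level itself was 65.1 ± 0.587 FPKM in zygotes, 51.9 ± 0.233 FPKM in early 2-cell embryos and 181.6 ± 6.48 FPKM in late 2-cell embryos. In late 2-cell embryos it was 23.0 ± 1.07 FPKM after A-485 treatment, with a *Sirt1* share of 52.1% ± 3.15, and 46.8 ± 0.481 FPKM after TSA treatment, with a share of 60.6% ± 0.964. Neither treated group overlapped its controls in the sum or in the share. The FPKM of all genes summed to between 799722 and 2045551 per library, so FPKM sums are not on one scale across stages. In TPM the sirtuin sum was 80.8 ± 1.61 in DMSO-treated zygotes, 40.7 ± 0.156 at early 2-cell and 133.9 ± 15.2 at late 2-cell. It was 11.8 ± 1.39 TPM after A-485, and 25.6 ± 1.90 TPM after TSA against 117.8 ± 1.36 TPM in its controls.

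**Figure D2:**
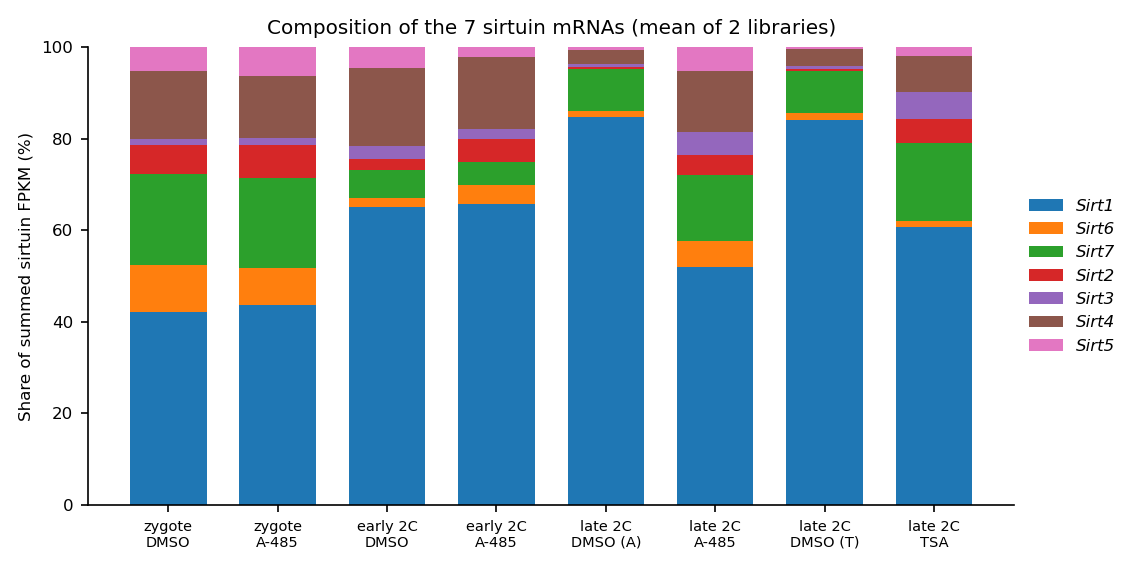
Share of each sirtuin in the summed FPKM of the 7 genes (y axis, percent, stacked bars from 0 to 100) in the 8 groups (x axis), as the mean of 2 libraries. *Sirt1* holds 84.7% and 84.1% in the 2 late 2-cell DMSO groups, 52.1% after A-485 and 60.6% after TSA.

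The first question was how sirtuin mRNAs change during the normal transition. From DMSO-treated zygotes to early 2-cell embryos, *Sirt6*, *Sirt7* and *Sirt2* fell, and no sirtuin rose past the cutoffs. Here and below a gene was called when its Benjamini-Hochberg adjusted p over all genes tested (edgeR quasi-likelihood test) was under 0.05, its fold change at least 2 and its mean FPKM at least 1 in either group. *Sirt6* was 6.14-fold lower (log2 fold change −2.62, SE 0.29, adjusted p = 7.04e-06), *Sirt7* 4.25-fold lower (−2.09, SE 0.24, adjusted p = 7.05e-06) and *Sirt2* 4.46-fold lower (−2.16, SE 0.37, adjusted p = 0.000274). Scaled to the mitochondrially encoded genes, the log2 fold changes were −3.95, −3.43 and −3.50, and all 3 remained called. The 3 calls among 7 members stand beside 14.9% of 20106 genes called lower and 11.2% called higher. Among the 13353 genes past the FPKM cutoff, as all 7 members were, 22.5% were called lower and 16.9% higher. Their median log2 fold change was −0.12. *Sirt1* had a log2 fold change of 0.36 (SE 0.09, adjusted p = 0.00632, edgeR), which is under 2-fold, and without the second zygote DMSO library its adjusted p was 0.0595. The direction of *Sirt1* turned to −0.97 when counts were scaled to the mitochondrially encoded genes, a scaling that moved the median of the expressed genes by −1.33, and its TPM went from 35.26 and 32.95 in zygotes to 26.52 and 26.45 while its FPKM rose. The other 3 members, *Sirt3*, *Sirt4* and *Sirt5*, had log2 fold changes of 0.71, −0.36 and −0.34 with adjusted p between 0.306 and 0.494, and the median over the 7 members was −0.36 beside 0.08 over all genes tested.

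From early to late 2-cell embryos, in which major ZGA takes place, *Sirt1* and *Sirt7* rose. *Sirt1* was 4.46-fold higher (log2 fold change 2.16, SE 0.12, adjusted p = 9.31e-08, edgeR) and *Sirt7* 5.68-fold higher (2.51, SE 0.25, adjusted p = 6.47e-06). The 2 calls among 7 stand beside 15.9% of 20326 genes called higher and 8.92% called lower, and the median of the members was 0.09 beside −0.02 over all genes tested. Among the 13727 genes past the FPKM cutoff, 23.6% were called higher and 13.2% lower, with a median of 0.03. *Sirt6* had a log2 fold change of 1.08 (SE 0.47) with an adjusted p of 0.0995, although its libraries of 2.14 and 2.29 FPKM lay above those of 1.04 and 0.94 FPKM. With the DMSO libraries of the TSA experiment as the late 2-cell group, 4 members were called, as *Sirt6* then had 1.48 (adjusted p = 0.00703) and *Sirt5* −1.51 (adjusted p = 0.0264, against −0.98 and 0.181 with the controls of the A-485 experiment). *Sirt4* shows how the 2 scales part. Its FPKM was 9.02 and 8.56 in early 2-cell embryos against 3.63 and 7.18 in late 2-cell embryos, yet its log2 fold change in counts was 0.09 (SE 0.36), since the effective length used for its FPKM went from a mean of 579 to 1070 bases.

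**Figure D3:**
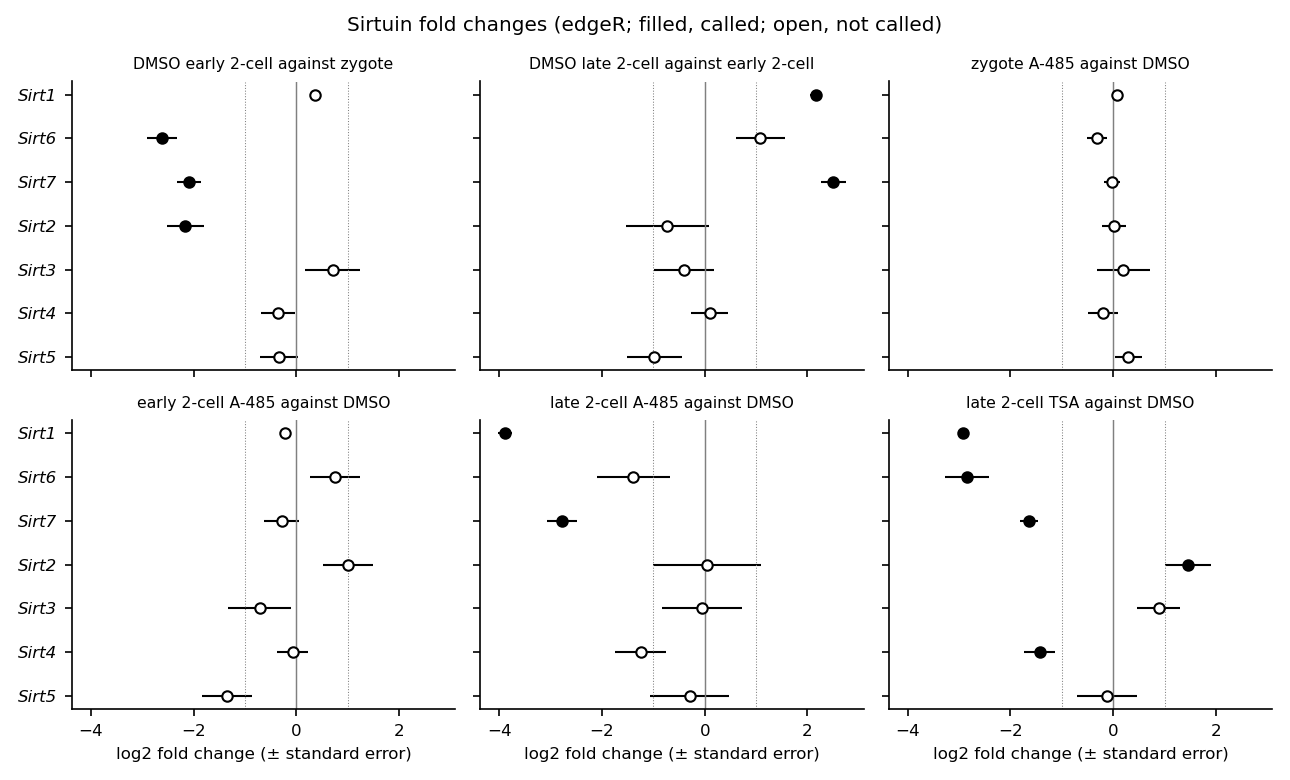
Log2 fold change of each sirtuin (x axis, points with bars of ± 1 standard error from edgeR) in 6 comparisons, with filled points for called genes and dotted lines at a log2 fold change of −1 and 1. The called points are *Sirt6*, *Sirt7* and *Sirt2* on the lower side from zygote to early 2-cell, *Sirt1* and *Sirt7* on the higher side from early to late 2-cell, and on the treatment panels *Sirt1* and *Sirt7* after A-485 and 5 of 7 members after TSA at late 2-cell.

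The second question was whether sirtuin mRNAs depend on CBP/p300 activity. In zygotes, none of the 7 members was called after A-485 treatment, none had an unadjusted p under 0.05, and DESeq2 called none either. Their log2 fold changes lay between −0.31 for *Sirt6* and 0.30 for *Sirt5*, with a smallest adjusted p of 0.919 (edgeR). In this comparison 0.00548% of 18258 genes were called higher and 0.0657% lower. The medians over the members and over all genes tested were 0.01 and −0.01.

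In early 2-cell embryos none of the members was called after A-485 treatment by edgeR or by DESeq2, while 0.402% of 20872 genes were called higher and 7.90% lower. *Sirt5* and *Sirt1* were the 2 members with an unadjusted p under 0.05. *Sirt5* held 0.91 and 0.94 FPKM after A-485 treatment and 2.03 and 2.73 FPKM under DMSO. These libraries do not overlap, but the log2 fold change of −1.34 (SE 0.49) did not pass after adjustment over all genes (adjusted p = 0.109, edgeR). *Sirt1* had −0.23 (SE 0.10, adjusted p = 0.180) and *Sirt2*, whose treated libraries held 2.20 and 2.10 FPKM against 0.91 and 1.58 FPKM, had 1.01 (SE 0.49, adjusted p = 0.241). *Sirt6*, *Sirt3*, *Sirt7* and *Sirt4* had 0.76, −0.71, −0.28 and −0.07 with adjusted p between 0.385 and 0.924. The median over the members was −0.23 beside 0.00 over all genes tested. Among the 12977 genes past the FPKM cutoff, 12.7% were called lower and 0.647% higher, with a median of −0.01. The difference between the A-485 effects at early 2-cell and in zygotes, tested as an interaction, was called for none of the 7, beside 4.00% of 23002 genes. Stage and a possibly shorter exposure of the zygotes cannot be told apart in it. DESeq2 called none, 3 had an unadjusted p under 0.05, and the largest difference was that of *Sirt5* with −1.59 on the log2 scale (SE 0.56, adjusted p = 0.115, edgeR).

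In late 2-cell embryos *Sirt1* and *Sirt7* fell after A-485 treatment. *Sirt1* was 14.8-fold lower (log2 fold change −3.89, SE 0.14, adjusted p = 5.06e-09, edgeR) and *Sirt7* 6.84-fold lower (−2.77, SE 0.29, adjusted p = 1.24e-05), with no overlap between treated and control libraries for either. Scaling to mitochondrial transcripts shifted the median expressed gene by −0.98 and gave log2 fold changes of −4.86 and −3.75. The 2 calls among 7 stand beside 16.8% of 22822 genes called lower and 10.5% called higher. The median over the members was −1.25 against 0.28 over all genes tested. Among the 16062 genes past the FPKM cutoff, as all 7 members were, 23.8% were called lower and 15.0% higher. The median over these genes was 0.02. *Sirt4* and *Sirt6* had −1.25 (SE 0.49, adjusted p = 0.0661) and −1.39 (SE 0.71, adjusted p = 0.141), and the libraries of *Sirt6* were uneven, with 0.57 and 2.01 FPKM from 8 and 37 counts, so that its log2 fold change was −0.70 without the first treated library and −2.73 (adjusted p = 0.0121, edgeR) without the second. Both were called with the DMSO libraries of the TSA experiment as controls (−1.77, adjusted p = 0.00326, and −1.82, adjusted p = 0.0340), with all 16 libraries in one fit, and with scaling to the mitochondrially encoded genes. *Sirt2*, *Sirt3* and *Sirt5* had log2 fold changes of 0.04, −0.05 and −0.30, with standard errors of 0.76 to 1.05, and their libraries overlapped.

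These A-485-treated late 2-cell libraries were the shallowest, with a mitochondrially encoded share of 5.35% and 5.43% against 2.35% and 2.44% in their controls. Fibroblast markers summed to between 14.22 and 16.41 FPKM in them, against between 0.13 and 0.64 FPKM in their controls. Of the 6 markers nearly all of this was *Pdgfra*, with a mean of 14.94 FPKM, while *Lum* was at 0 in all 16 libraries. Stage markers differed too. The oocyte and zygote markers summed to between 1338 and 1361 FPKM after A-485 against between 700.1 and 746.8 FPKM in the controls, and the 2-cell markers to between 55.6 and 58.49 FPKM against between 240.3 and 264.4 FPKM. The part of these differences in the sirtuin values was not tested.

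The A-485 effect on *Sirt1* and *Sirt7* differed between late and early 2-cell embryos. The interaction was −3.58 on the log2 scale for *Sirt1* (SE 0.17, adjusted p = 6.38e-13, edgeR) and −2.41 for *Sirt7* (SE 0.46, adjusted p = 0.000304), and these were the 2 members called beside 15.0% of 25141 genes. With mitochondrial scaling the differences were −4.63 and −3.46. The rise from early to late 2-cell and the fall after A-485 treatment share the late 2-cell DMSO libraries, as the comparisons at early 2-cell share the early 2-cell DMSO libraries, and are not independent of each other. In levels, *Sirt1* under A-485 went from 26.53 and 30.31 FPKM in early 2-cell embryos to 11.06 and 12.87 FPKM in late 2-cell embryos. *Sirt7* under A-485 did not drop between these stages. It went from 1.95 and 2.54 FPKM to 3.77 and 2.85 FPKM, below its late 2-cell controls of 15.24 and 18.02 FPKM.

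The third question was how inhibition of zinc-dependent HDACs changes sirtuin mRNAs. After TSA treatment *Sirt1*, *Sirt6*, *Sirt7* and *Sirt4* fell, and *Sirt2* rose. *Sirt1* was 7.61-fold lower (log2 fold change −2.93, SE 0.08, adjusted p = 2.54e-09, edgeR). *Sirt6*, with 0.90 and 0.36 FPKM against 3.03 and 2.52 FPKM, was 7.23-fold lower (−2.85, SE 0.43, adjusted p = 0.00029). That fold rested on 20 and 11 counts in the TSA libraries against 129 and 108 under DMSO. *Sirt7* was 3.11-fold lower (−1.64, SE 0.17, adjusted p = 2.06e-05), and *Sirt4*, with 3.40 and 3.96 FPKM against 7.73 and 6.78 FPKM, 2.7-fold lower (−1.43, SE 0.29, adjusted p = 0.00237). Treated and control libraries did not overlap for any of the 4. *Sirt2* held 3.18 and 1.85 FPKM against 1.32 and 0.56 FPKM and was 2.74-fold higher (1.45, SE 0.44, adjusted p = 0.0218), a call that rested on between 20 and 62 counts per library and was lost with DESeq2 (adjusted p = 0.0576), without the second DMSO library (0.0707) and without the first (0.0897) or the second (0.0682) TSA library.

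The 4 lower calls stand beside 13.9% of 23429 genes called lower and the 1 higher call beside 13.8% called higher, and the median over the members was −1.43 against 0.13 over all genes tested. Among the 16048 genes past the FPKM cutoff, 20.2% were called lower and 20.2% higher, with a median of −0.03. The 6 members past it had a median of −1.54. *Sirt3* had a log2 fold change of 0.88 (SE 0.41, adjusted p = 0.110), although its TSA libraries were the highest of the 16, and *Sirt5* had −0.12 (SE 0.58, adjusted p = 0.895). With the DMSO libraries of the A-485 experiment as controls 3 members were called, as *Sirt4* had −0.88 (adjusted p = 0.0905) and *Sirt2* 1.68 (adjusted p = 0.0784). The 2 sets of late 2-cell DMSO libraries gave no call among the 7 members when compared with each other, beside 1.32% of 20647 genes, with log2 differences between −0.55 for *Sirt5* and 0.46 for *Sirt4*. The fibroblast markers summed to between 5.51 and 8.07 FPKM in the TSA libraries against between 0.38 and 1.73 FPKM in their controls, again mostly *Pdgfra* with a mean of 4.53 FPKM. The mitochondrially encoded share was 3.66% and 3.72% in the TSA libraries against 2.71% and 2.39%, the share of the 20 most abundant genes at least 25.7% against at most 20.8%, and the 2-cell markers summed to between 405.3 and 486.7 FPKM against between 153.5 and 176 FPKM. The part of these differences in the sirtuin values was not tested.

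The fall of *Sirt1* and *Sirt7* was larger after A-485 than after TSA. The A-485 effect minus the TSA effect was −1.07 on the log2 scale for *Sirt1* (SE 0.15, adjusted p = 5.67e-05, edgeR) and −1.24 for *Sirt7* (SE 0.32, adjusted p = 0.0113), beside 13.5% of 26554 genes called in either direction. Of the 18257 genes past the FPKM cutoff, 15.7% were called lower and 3.93% higher in this difference. DESeq2 called only *Sirt7* among them, since *Sirt1* at −0.93 was under the 2-fold cutoff, and leaving out 1 library at a time left between 0 and 2 calls, with an adjusted p of up to 0.0721 for *Sirt7*. With mitochondrial scaling the differences were −1.75 for *Sirt1* and −1.94 for *Sirt7*. For *Sirt6* the difference was 1.35 (SE 0.85, adjusted p = 0.332), and it was 2.05 without the first and 0.0093 without the second A-485 library. For the other 4 members it lay between −1.51 and 0.08 with adjusted p of 0.395 or above. The agents differed in their target, in dose and in the start and end of culture, which cannot be told apart here.

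Open chromatin was measured by ATAC-seq at the late 1-cell and early 2-cell stages, with DMSO and with A-485, as 1 list of peaks over both replicates of a group, so that the peaks have no replicate spread and no test. Within 1 kb of an annotated start site, 1 of 7 sirtuins had a peak in each late 1-cell list, where 26.2% (DMSO) and 24.7% (A-485) of 21951 protein-coding genes had one. In each early 2-cell list 3 of 7 sirtuins had a peak, where the shares of all genes were 31.7% (DMSO) and 40.9% (A-485). *Sirt2*, *Sirt6* and *Sirt7* had none in any list.

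*Sirt1* had a peak over its RefSeq start site in 1 of the 4 lists. It lay at chr10:63338737-63339613 (GRCm38) in DMSO-treated early 2-cell embryos, with a fold enrichment of 6.73, a −log10 q of 25.2 and its summit 105 bp upstream of the start at position 63339035. The median fold enrichment of that DMSO list was 8.12, and the *Sirt1* start peak stood at percentile 26.7 of it. No peak was listed within 1 kb of this start in A-485-treated early 2-cell embryos. The A-485 list holds 13712 peaks against 27693 under DMSO, but covers more protein-coding genes within 1 kb of a start (8984 against 6964). Since a list holds only peaks past its threshold, the absence is not a measured loss of open chromatin. The *Sirt1* mRNA was not called at this stage, with 26.53 and 30.31 FPKM after A-485 and 34.06 and 33.57 FPKM under DMSO. A weaker peak near the upstream annotated start of *Sirt1* at position 63381704 was listed under both conditions, with a fold enrichment of 5.12 under DMSO and 5.94 under A-485. The gene spans chr10:63319005-63381704 on the minus strand. The promoter stretch under the first peak is shown because its peak was listed under DMSO and not under A-485 at early 2-cell, as was that of *Sirt4*, and *Sirt1* is the sirtuin with the largest A-485 fold change at late 2-cell. It runs from 250 to 16 bases upstream of the RefSeq start (chr10:63339051-63339285, minus strand, from the RefSeq table of GRCm38.p6), with matches to the E-box CACGTG and to the GC box GGGCGG in capitals.
Sirt1 promoter: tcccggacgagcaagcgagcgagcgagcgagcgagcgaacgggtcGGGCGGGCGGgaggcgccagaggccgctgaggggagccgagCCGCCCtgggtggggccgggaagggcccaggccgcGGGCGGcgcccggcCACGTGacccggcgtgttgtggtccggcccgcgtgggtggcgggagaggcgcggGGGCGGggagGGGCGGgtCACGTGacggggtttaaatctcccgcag

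*Sirt5* had a peak over its start in both early 2-cell lists and in neither late 1-cell list. The DMSO peak (chr13:43365351-43365812) had a fold enrichment of 6.29 and the A-485 peak (chr13:43365104-43365936) of 8.73, while its mRNA held 2.03 and 2.73 FPKM under DMSO and 0.91 and 0.94 FPKM under A-485. Its promoter stretch, from 250 to 40 bases upstream of the RefSeq start (chr13:43365285-43365495, plus strand, same table), is shown beside that of *Sirt1*, with a CCAAT match in capitals.
Sirt5 promoter: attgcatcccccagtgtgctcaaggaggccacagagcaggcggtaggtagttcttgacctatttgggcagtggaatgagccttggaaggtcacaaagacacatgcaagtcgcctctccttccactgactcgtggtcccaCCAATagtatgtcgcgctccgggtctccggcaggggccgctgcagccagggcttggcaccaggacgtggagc

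The 300 bases around the *Sirt1* start held 79% G and C and 47 CpG sites, where the medians over 32851 promoters of the same length were 52.67% and 7. They held 2 E-box matches, at 115 and 43 bases upstream, where 7.15% of all promoters hold at least 1, and 7 GC box matches on either strand, 1 of them downstream of the start and outside the stretch printed, where 35.7% hold at least 1. None of the other sirtuin promoters held an E-box match. The *Sirt5* promoter held 62% G and C, 15 CpG sites, 1 CCAAT match (37.4% of all promoters) and 1 GC box match at 36 bases upstream. *Sirt7* had 2 matches to CCGGAAG (8.86%) and 1 to GCGCATGCG (1.75%), and 1 of the 2 RefSeq starts of *Sirt6* had 1 match to the former and 2 overlapping matches to the latter. No sirtuin promoter held TATAAA (13.6%). Both strands were searched, and a match is a description of the letters and not a measured binding site.

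*Sirt3* had a peak at its start in both late 1-cell lists, with a fold enrichment of 6.68 under DMSO and 8.02 under A-485, and in the early 2-cell A-485 list with 7.64, but none in the early 2-cell DMSO list. Exons of *Psmd13*, on the opposite strand, lie at the same place, so these peaks cannot be assigned to *Sirt3* alone. *Sirt4* had 2 peaks, with fold enrichments of 4.71 and 4.63, which were listed in DMSO-treated early 2-cell embryos and in no other list. These were weak peaks, at percentiles 3.25 and 2.75 of fold enrichment in that list. Within 2.5 kb of any annotated start, *Sirt7* gained a peak in all 4 lists and *Sirt2* in the early 2-cell DMSO list. This gave 2 of 7 sirtuins in each late 1-cell list (27.9% of all genes under DMSO and 25.8% under A-485). It gave 5 in the early 2-cell DMSO list (36.9%) and 4 in the early 2-cell A-485 list (42.6%). The added peaks were not at the RefSeq starts. In early 2-cell DMSO embryos that of *Sirt7* lay 6720 to 7235 bp downstream of its RefSeq start, past the end of the gene. That of *Sirt2* lay 6430 to 6905 bp downstream, inside the gene.

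**Figure D4:**
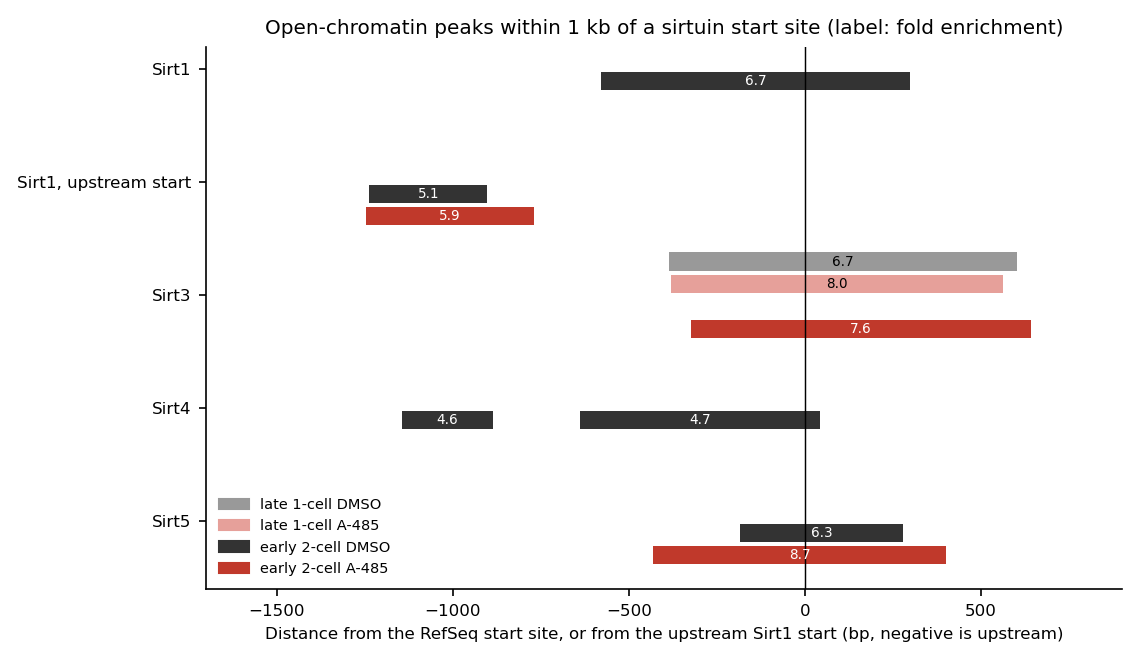
Open-chromatin peaks within 1 kb of a sirtuin start site (bars, numbers are fold enrichment) by distance from the RefSeq start, or for the second row from the upstream *Sirt1* start (x axis, bp; for *Sirt3* the upstream of 2 RefSeq starts), in the 4 peak lists. The *Sirt1* start peak of 6.73-fold is listed in early 2-cell DMSO embryos and in no other list. The *Sirt3* start, where exons of *Psmd13* also lie, has a peak in every list but early 2-cell DMSO.

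Sirtuins consume NAD, and the genes that make, carry or consume NAD or regulate SIRT1 were followed as 5 lists of 37 genes beside the members, counted among the genes tested in each comparison. In zygotes 0 of 27 passed after A-485 treatment (edgeR), and of the 55 genes tested there in all the lists, substrates and HDACs included, 1 had an unadjusted p under 0.05. In early 2-cell embryos 2 of 29 fell after A-485 treatment, in late 2-cell embryos 8 of 28 fell and 1 rose, and after TSA treatment 9 of 32 fell and 7 rose. In the normal transition 4 rose and 5 fell of 27 from zygote to early 2-cell, and 8 rose of 27 from early to late 2-cell. The background shares are those given over all genes tested for each comparison above.

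Among NAD salvage genes, *Nampt*, the rate-limiting enzyme of the pathway, was among the genes that rose to late 2-cell and fell after both agents. It held 3.98 and 3.91 FPKM in early 2-cell embryos and 17.30 and 12.34 FPKM in late 2-cell embryos, a log2 fold change of 1.87 (SE 0.19, adjusted p = 7.54e-06, edgeR). It fell by 1.33 on the log2 scale after A-485 treatment (SE 0.20, adjusted p = 0.000198), to 7.79 and 6.04 FPKM, and by 1.25 after TSA treatment (SE 0.14, adjusted p = 3.97e-05). *Nmnat1*, the nuclear NAD synthase, was lower after A-485 already at early 2-cell, with 0.21 and 0.09 FPKM against 4.60 and 4.91 FPKM (log2 fold change −4.88, SE 0.49, adjusted p = 2.26e-05). At late 2-cell it fell by 4.22 after A-485 and by 1.99 after TSA, and in the normal transition it rose by 2.25 to early 2-cell and by 2.03 to late 2-cell. *Pnp*, which cleaves nucleosides including nicotinamide riboside, rose by 1.37 to early 2-cell and fell by 1.38 after A-485 at late 2-cell. *Nmrk1*, a nicotinamide riboside kinase, held 17.40 and 17.87 FPKM after TSA treatment against 1.01 and 1.56 FPKM (3.58, SE 0.22, adjusted p = 3.75e-07), and it was near 0 in zygotes (0.02 and 0.04 FPKM under DMSO) and at 1.82 and 2.00 FPKM at early 2-cell. *Nadsyn1*, which makes NAD from its acid precursor, rose by 1.50 after TSA and fell by 1.25 from zygote to early 2-cell, although its FPKM was alike there (4.59 and 3.67 against 3.30 and 4.91), as its effective length went from 2161 to 890 bases.

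In the de novo branch *Afmid* fell by 1.44 to early 2-cell and rose by 1.71 to late 2-cell, and *Tdo2*, the first enzyme of the branch, rose by 1.81 after TSA treatment. *Nnt*, the mitochondrial transhydrogenase, was the 1 gene of these lists that rose after A-485. It held 1.96 and 3.29 FPKM after A-485 against 0.08 and 0.12 FPKM (log2 fold change 4.27, SE 0.67, adjusted p = 0.000322, edgeR) and 1.86 and 2.83 FPKM after TSA against 0.07 and 0.17 FPKM (3.84, SE 0.49, adjusted p = 8.78e-05). *Slc25a51*, the mitochondrial NAD carrier, fell by 1.03 after TSA.

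*Parp1*, a nuclear NAD consumer, rose by 1.76 on the log2 scale from early to late 2-cell (SE 0.17, adjusted p = 4.50e-06, edgeR). It fell by 3.87 after A-485 (SE 0.20, adjusted p = 3.18e-08) and by 1.38 after TSA (SE 0.12, adjusted p = 5.95e-06), and from zygote to early 2-cell it had −0.54 (adjusted p = 0.0103), under 2-fold. In FPKM the A-485 difference is smaller, 4.76 and 6.24 against 25.46 and 31.84, as the effective length of *Parp1* was 1312 bases in the treated and 3198 bases in the control libraries. *Parp2* fell after A-485 at early 2-cell (−2.33) and late 2-cell (−1.94) and after TSA (−2.66), and in the normal transition it fell by 1.42 to early 2-cell and rose by 3.05 to late 2-cell. *Parp4* fell by 1.45 to early 2-cell. After TSA treatment *Parp3* and *Sarm1* rose by 1.24 and 2.74, and *Tnks2* fell by 1.22.

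Of the 5 regulators of SIRT1, 3 rose from early to late 2-cell, and the same 3 genes fell after A-485 and after TSA. Over all genes tested, 15.9% were called higher in that step, and 16.8% and 13.9% lower after A-485 and TSA. The rise and the fall after A-485 share the late 2-cell DMSO libraries and are not independent. *Usp22*, a deubiquitinase that stabilizes SIRT1, held 5.23 and 3.60 FPKM in early 2-cell embryos against 79.48 and 54.45 FPKM in late 2-cell embryos (log2 fold change 3.98, SE 0.17, adjusted p = 2.71e-08, edgeR). It fell by 4.65 after A-485 and by 3.74 after TSA. *Rps19bp1*, known as active regulator of SIRT1, rose by 1.68 and fell by 3.81 and 2.05, and from zygote to early 2-cell it fell by 1.13. *Ccar2*, an inhibitor of SIRT1, rose by 1.65 (adjusted p = 0.000626) and fell by 1.69 after A-485 (adjusted p = 0.00183) and by 1.01 after TSA (adjusted p = 0.00442). *Hic1*, a repressor of *Sirt1* transcription, rose by 2.07 to early 2-cell and by 2.60 after TSA treatment, where it held 8.68 and 7.69 FPKM against 0.95 and 1.14 FPKM. *Senp1* was not called in any of the 6 comparisons.

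Genes for sirtuin substrates changed in both directions. Over all genes tested, 7.90% and 16.8% were called lower after A-485 at early and late 2-cell. After TSA 13.9% were called lower and 13.8% higher. No substrate gene of either list was called higher after A-485 at any stage. Of the 10 nuclear and cytosolic substrates, none was called after TSA, and 2 fell after A-485 at both 2-cell stages. *Suv39h1*, the H3K9 methyltransferase, fell by 3.06 and 3.01 after A-485, and it rose in the normal transition from 0.12 and 0.09 FPKM in zygotes to 4.70 and 5.86 FPKM in early 2-cell embryos and 33.77 and 30.12 FPKM in late 2-cell embryos. *Foxo4* fell by 2.79 and 1.3 after A-485 and rose by 4.84 from zygote to early 2-cell, while *Xrcc6* (Ku70) fell by 3.85 and *Hif1a* by 1.10 in that step, and *Hif1a* by a further 1.18 to late 2-cell. *Trp53* stayed under 2-fold in all 6 comparisons. Of the 11 mitochondrial substrates, *Glud1*, *Ndufa9* and *Pdha1* fell after A-485 at late 2-cell (−1.13, −3.27 and −1.49) and after TSA (−1.46, −1.23 and −1.48). After TSA *Sod2* also fell (−1.16) and *Acadl* rose (2.94). In the normal transition *Sod2* rose by 1.15 to early 2-cell while *Acadl* (−1.53), *Mlycd* (−2.34) and *Pdha1* (−1.22) fell, and to late 2-cell *Ndufa9* rose by 1.43 and *Sdha* fell by 1.27.

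In the tests of a difference between effects, the same NAD and SIRT1 lists gave 2 calls of 30 genes for early 2-cell against zygote, which were *Nmnat1* (−4.29) and *Parp2* (−2.06), both with a larger fall at early 2-cell. For late against early 2-cell there were 6 of 31, of which *Usp22* (−4.39), *Parp1* (−3.29), *Rps19bp1* (−3.21) and *Ccar2* (−1.59) had the larger fall at late 2-cell, as *Sirt1* and *Sirt7* did, while *Nnt* (4.30) and *Nadsyn1* (2.58) had the higher effect there. For A-485 against TSA 8 of 32 were called, all with the lower value after A-485, among them *Parp1* (−2.60), *Nmnat1* (−2.34), *Rps19bp1* (−1.87) and *Usp22* (−1.02). Over all genes tested, 4.00%, 15.0% and 13.5% were called in these differences, in either direction. For A-485 against TSA, the 18257 genes past the FPKM cutoff leaned the same way, with 15.7% called lower and 3.93% higher. The *Nampt* effects of A-485 and TSA differed by −0.20 (SE 0.25, adjusted p = 0.694, edgeR).

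The course of each member over the 16 libraries was compared by Pearson's r of log2(FPKM + 0.1), as a description, with that of the 9897 or 9898 other protein-coding genes whose mean FPKM was at least 5 in any group. The closest genes were *Ipo5* (r = 0.984) and *Prps1l3* (0.981) for *Sirt1*, *Uqcrfs1* (0.979) and *Rpl19* (0.978) for *Sirt7*, and *Timm44* (0.940) and *Trip4* (0.938) for *Sirt6*. For *Sirt2* they were *Orc3* (0.914) and *Fbxo7* (0.904), for *Sirt4* *Ubxn7* (0.913) and *Fkbpl* (0.876), for *Sirt5* *Acp6* (0.932) and *Prickle3* (0.919) and for *Sirt3* *Bbx* (0.831) and *S100a6* (0.822). Among the members themselves r was highest between *Sirt2* and *Sirt5* (0.648) and between *Sirt1* and *Sirt7* (0.637), and lowest between *Sirt3* and *Sirt6* (−0.467). The 16 libraries share stages, treatments and depth, and they fall into 8 groups.

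Some sirtuin exons overlap other genes. *Sirt3* shares 5.73% of its exon bases with *Psmd13* and 7.00% with *Ric8a* on the opposite strand, *Sirt7* shares 2.41% with *Mafg* on the same strand, and *Sirt1* and *Sirt2* share 1.22% and 0.834% with *Gm16145* and *Nfkbib* on the opposite strand. Whether the counting used the strand is not given in the sources used here. The levels of *Sirt3*, which rest on 14 to 73 counts per library, are uncertain on this account.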

How the data were processed

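Total RNA-seq libraries (SMART-Seq Stranded kit) were made from embryos of 8 groups with 2 libraries each. The authors trimmed reads with Trimmomatic (0.39), mapped them to GRCm38 with STAR (2.7.8a) and deposited expected counts, FPKM and TPM per gene from RSEM (1.3.1). The strand setting is not given in the sources used here. For ATAC-seq the authors deposited the replicated peaks of the ENCODE pipeline, with a fold enrichment and a −log10 q per peak, 1 list per group, and peaks repeated at the same position were joined. The other files were not used here.

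Gene IDs were matched to GENCODE M21 symbols for 55144 of 55385 genes. Rounded expected counts were tested with edgeR (4.0.16, R 4.3.3, TMM, quasi-likelihood F test, a minimum of 10 summed counts per gene), with Benjamini-Hochberg adjustment over all genes tested, a fold cutoff of 2 and an FPKM cutoff of 1, as the study's methods set them. Differences between effects were tested as interactions with a log2 difference of at least 1. DESeq2 (1.42.0), other scalings, filters, controls and left-out libraries were alternatives. In data simulated for the late 2-cell A-485 comparison over 22822 genes, 48% of genes changed 2-fold and 78% of those changed 4-fold were recovered. The simulation used a lower fold cutoff than the calls and no FPKM cutoff. It changed only genes with more counts than *Sirt2*, *Sirt3*, *Sirt5* and *Sirt6* held. The shares therefore do not give the recovery of these members. Genes are named as members, as called genes of 8 lists, or as *Nampt*, *Parp1*, *Ccar2* and *Hdac1*, and the 2 protein-coding genes most alike in FPKM (log2, pseudocount 0.1) are named for each member. The members and lists were chosen with earlier results of these data known, and the promoter motifs after the sequences were seen. Files were read with pandas (2.3.3) and plotted with matplotlib (3.10.9). Replicate libraries of a group differed by more than sampling noise, their counts giving a chi-square of 9.44 to 19.6 times its degrees of freedom.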

Additional observations from a re-analysis of the deposited data

Results flagged for a closer look

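The effects of 2 treatments or stages differed for *Sirt1* and *Sirt7* in a test of the difference itself (edgeR interaction). The A-485 effect at late 2-cell minus that at early 2-cell was −3.58 on the log2 scale for *Sirt1* (SE 0.17, adjusted p = 6.38e-13) and −2.41 for *Sirt7* (SE 0.46, adjusted p = 0.000304). The A-485 effect minus the TSA effect at late 2-cell was −1.07 for *Sirt1* (SE 0.15, adjusted p = 5.67e-05) and −1.24 for *Sirt7* (SE 0.32, adjusted p = 0.0113). In each case both libraries of every treated group lay below both of their controls at late 2-cell.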

How the results depend on the processing

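The cause of each change below was not tested. Scaled to mitochondrially encoded genes, the median of expressed genes moved by between −1.33 and 0.27, and the sirtuins called were 4 after A-485 at late 2-cell (adding *Sirt4* and *Sirt6*), 5 from zygote to early 2-cell (adding *Sirt4* and *Sirt5*), and 1 and 4 in the differences of the A-485 effect at early 2-cell from zygotes and at late from early 2-cell. Under that scaling log2 values turned sign to 0.094 (*Sirt4*) and 0.24 (*Sirt7*) in zygotes after A-485, −0.96 (*Sirt2*) at late 2-cell after A-485, −0.97 (*Sirt1*) and −0.62 (*Sirt3*) from zygote to early 2-cell, −0.18 (*Sirt4*) and −0.32 (*Sirt3*) in these 2 differences, and −0.62 (*Sirt4*) for A-485 minus TSA. One fit of all 16 libraries called 4 after A-485 at late 2-cell and turned *Sirt5* after TSA to 0.012. Controls of the other experiment, tried after the data were seen, gave 4 calls after A-485 and 3 after TSA, and TSA-experiment controls gave 4 from early to late 2-cell. DESeq2 called 1 for A-485 minus TSA and turned *Sirt3* after A-485 at late 2-cell to 0.013. Scaling to total counts turned that value to 0.14 and *Sirt5* after TSA to 0.23. With a 2.5 kb window 2, 2 and 5 sirtuins had a peak in the late 1-cell DMSO, late 1-cell A-485 and early 2-cell DMSO lists, and 4 in the early 2-cell A-485 list.

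Without 1 library at a time, A-485 minus TSA gave between 0 and 2 calls. Values not called ranged across 0, in zygotes after A-485 from −0.0088 to 0.16 (*Sirt1*), −0.22 to 0.28 (*Sirt2*), −0.38 to 0.60 (*Sirt3*), −0.60 to 0.36 (*Sirt4*) and −0.18 to 0.15 (*Sirt7*), at early 2-cell from −0.20 to 0.062 (*Sirt4*), at late 2-cell from −0.58 to 1.28 (*Sirt2*), −0.57 to 0.35 (*Sirt3*) and −0.63 to 0.22 (*Sirt5*), and after TSA from −0.47 to 0.35 (*Sirt5*). They ranged from −0.78 to 0.20 (*Sirt4*) and −0.63 to 0.0015 (*Sirt5*) from zygote to early 2-cell, and from −0.13 to 0.31 (*Sirt4*) from early to late 2-cell. In the differences they ranged from −0.39 to 0.61 (*Sirt4*, early 2-cell minus zygote), −1.73 to 0.091 (*Sirt2*, late minus early 2-cell), and −0.12 to 0.33 (*Sirt4*) and −0.74 to 0.20 (*Sirt5*) for A-485 minus TSA. Of the values turned in sign, *Sirt1* under mitochondrial scaling was past the threshold (adjusted p = 1.35e-06, edgeR).

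No shared effect of the replicate number was seen between groups, as the correlations of replicate differences lay between −0.069 and 0.082. These values cannot show whether libraries of the same number came from a shared culture. With a replicate block the numbers of sirtuins called were 0, 0, 2 and 5 after A-485 in zygotes, at early and at late 2-cell and after TSA, 3 and 2 in the normal transitions and 0, 2 and 2 in the differences, equal to those without it. With 2 libraries a group, depth limits the low members most, since *Sirt6* rested on as few as 8 counts.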

Other observations

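The zinc-dependent deacetylases, the other deacetylase family and the target of TSA, were followed as a list of 11 genes. *Hdac1*, a class I enzyme, rose through the normal transition, from 3.60 and 5.67 FPKM in zygotes to 33.28 and 28.08 FPKM at early 2-cell and 89.06 and 98.84 FPKM at late 2-cell (log2 fold changes 2.74 and 1.74, adjusted p = 2.03e-07 and 1.15e-06, edgeR). It fell after A-485 already at early 2-cell, to 3.86 and 7.07 FPKM (−3.07, SE 0.25, adjusted p = 3.22e-06), and the difference from the zygote effect was −2.91 (SE 0.35, adjusted p = 9.34e-06). At late 2-cell it fell by 3.17 after A-485 and by 1.10 after TSA.

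At late 2-cell 3 of 11 HDAC genes fell after A-485, *Hdac1* among them, where 16.8% of all genes tested were called lower. *Hdac4* fell by 2.34 and *Hdac6*, a cytosolic tubulin deacetylase, by 3.14 on the log2 scale. After TSA 3 of 11 rose and 2 fell, where 13.8% of all genes tested were called higher and 13.9% lower. *Hdac11* held 6.02 and 5.63 FPKM against 0.41 and 0.64 FPKM under DMSO (4.38, SE 0.39, adjusted p = 5.29e-06, edgeR), *Hdac7* 2.88 and 1.88 FPKM against 0.16 and 0.06 FPKM (4.37, SE 0.64, adjusted p = 0.000232, from a mean of 4 counts per DMSO library) and *Hdac3* 5.23 and 4.16 FPKM against 0.55 and 0.47 FPKM (2.89, SE 0.34, adjusted p = 4.60e-05). In the normal transition *Hdac3* and *Hdac4* fell to early 2-cell by 1.32 and 1.07, and *Hdac4*, *Hdac5* and *Hdac6* rose to late 2-cell by 1.55, 2.97 and 1.92. *Hdac2* held 78.31 and 73.75 FPKM after TSA against 38.91 and 35.29 FPKM and was not called, as its fold change was under the cutoff.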
